A study of Mus musculus with 6 samples.

Results

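Genes of fatty acid handling were followed through colon RNA from mice with dextran sulfate sodium (DSS) colitis: Fabp1, Fabp2, Fabp4, Fabp5, Cd36, Slc27a2, Slc27a4, Plin2, Cpt1a and Angptl4. These 10 were chosen by name as forms typical of gut epithelium or of fat and blood vessels, with a storage gene, a mitochondrial entry gene and a secreted regulator, out of 18477 genes in the deposited table. All 10 were found, and 9 had enough counts to be tested. The mice were male C57BL/6 animals aged 6 to 8 weeks. Every mouse drank 2% DSS, which damages the lining of the colon, for 7 days. One group was gavaged daily with PBS for 14 days (DSS, n = 3), and the other with the gut bacterium *Bacteroides vulgatus* (DSS+BV, n = 3). Each library held the colon of 1 mouse, and libraries of mice without DSS were not analysed here. The comparison asks how gavage with the bacterium alters colon gene expression in colitis.

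Fatty acids enter cells with the help of the membrane receptor CD36 and of the fatty acid transport proteins (SLC27), which also couple them to coenzyme A. Inside the cell, small fatty acid binding proteins (FABP) carry them to the lipid droplet for storage or to mitochondria and peroxisomes for oxidation. Absorptive gut cells are known for FABP1 and FABP2, whereas FABP4 is known from adipocytes, capillary endothelium and macrophages. In bulk tissue RNA, fewer cells of a type and less RNA per cell cannot be told apart.

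No gene of the 10 passed the edgeR test for a difference between the groups, and with DESeq2 Cd36 alone did. Most of the 10 followed 2 patterns over the 6 libraries. Fabp4, Fabp5, Cd36 and Angptl4 had no DSS+BV mouse at or above any DSS mouse, with fitted differences between 1.75-fold and 3.21-fold, and the lipid droplet gene Plin2 was 1.66-fold lower with 1 overlap of the groups. Fabp2, Slc27a4 and Cpt1a had higher means in DSS+BV mice, but these came from DSS+BV 2 and DSS+BV 3, and DSS 2 had similar values. Fabp1 was at or near 0 in all but DSS+BV 3. Levels are given as CPM, the count scaled to a library total of 1000000, with totals scaled by TMM, the trimmed mean of M values, between 15160810 and 17172334. A positive log2 fold change means a higher level in DSS+BV mice. Values of a group are listed in the order of replicates 1, 2 and 3.

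**Figure D1:**
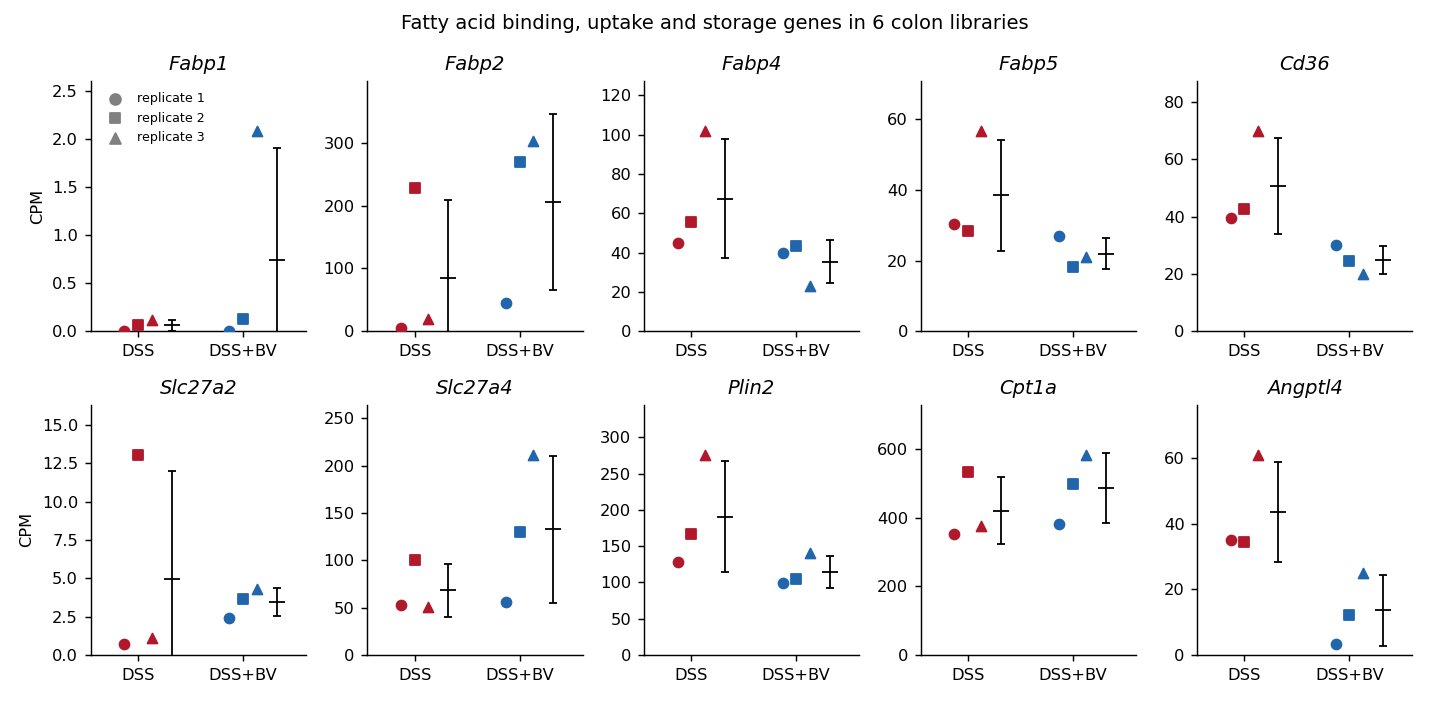
Level of each of the 10 genes in CPM (vertical axis, starting at 0) in the 3 DSS (red) and 3 DSS+BV (blue) libraries, with the replicate number as the symbol and the mean with its SD (cut off at 0) as black bars. Fabp4, Fabp5, Cd36 and Angptl4 have no overlap of the groups, whereas Fabp2 is high in DSS 2, DSS+BV 2 and DSS+BV 3 and low in the other 3 libraries.

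The 4 fatty acid binding proteins are products of related genes, so their sequences show whether reads could be mistaken between them. Their coding sequences were 384 bases for Fabp1, 399 for Fabp2, 399 for Fabp4 and 408 for Fabp5, each in 4 exons. Aligned in pairs, 5 of the 6 pairs were identical at 49.0% to 50.6% of aligned positions, and the vascular and adipose form Fabp4 and its neighbour Fabp5 were the closest pair, at 61.4%. The longest run of bases that this pair shared was 12, shown here in capitals within 60 coding bases of each gene (GRCm38, 5′ to 3′, Fabp4 on the minus strand at chr3:10206056-10206115 and Fabp5 on the plus strand at chr3:10014978-10015037, each inside 1 exon).
Fabp4: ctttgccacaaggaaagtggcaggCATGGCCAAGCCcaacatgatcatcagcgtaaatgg
Fabp5: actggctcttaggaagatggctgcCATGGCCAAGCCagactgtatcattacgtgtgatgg
Differences lay on both sides of the run. No count of the 10 genes held a fraction of a read in the deposited table, whereas 1573 other genes had at least 1 value that was not a whole number (tolerance 1e-09). The genes lie at separate positions (RefSeq, GRCm38.p6), with Fabp5 at chr3:10012585-10016610, Fabp4 at chr3:10204342-10208616 and Fabp2 at chr3:122895072-122899506 on chromosome 3, and Fabp1 at chr6:71199879-71205034.

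Fabp1 (Entrez gene 14080), the liver form that absorptive cells of the small intestine also make, was nearly absent. It had 0, 1 and 2 counts among the DSS mice, and 0, 2 and 33 counts among the DSS+BV mice. The 33 counts of DSS+BV 3 corresponded to 2.09 CPM, and every other library was under 3 counts, the most that a count of 0 allows (0.175 to 0.198 CPM by library, for counting error only). The gene was removed by the filter on low counts, so no fold change is given.

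Fabp2 (Entrez gene 14079), the intestinal form, was at 5.45, 228.8 and 19.8 CPM among DSS mice, and at 44.7, 269.7 and 303.0 CPM among the DSS+BV mice. DSS 2 lay close to DSS+BV 2 and 3, DSS+BV 1 lay nearer to DSS 1 and 3, and the groups overlapped. Within the DSS group the highest mouse was at 42.0 times the lowest, and within the DSS+BV group at 6.79 times. The means were 84.7 ± 125 CPM for DSS and 205.8 ± 140.6 CPM for DSS+BV mice (SD, n = 3 each). The log2 fold change of 1.28 had a standard error of 1.32 and a 95% interval from -1.86 to 4.42 (quasi-likelihood test of edgeR, adjusted p = 0.711 over the 14579 tested genes). The difference was thus within the spread between mice. It moved from 0.74 without DSS 1 to 4.02 without DSS 2.

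The summed level of markers of position along the colon was low where Fabp2 was high, though single markers differed. The summed level of 6 Hox genes of the distal colon was 344.1, 58.9 and 192.3 CPM among the DSS mice, and 340.5, 165.7 and 13.97 CPM among the DSS+BV mice, so the 3 libraries with the most Fabp2 were the 3 with the lowest sums. Hoxb13, a defining gene of the distal colon, was at 211.1, 36.4 and 125.3 CPM in the DSS group and 247.7, 112.4 and 0.0 CPM in the DSS+BV group, and DSS+BV 3, where it was at 0, was the library with 33 Fabp1 counts. Most of the sum came from Hoxb13 and Hoxd13. Hoxa13 had its highest level in DSS 2, at 21.01 CPM, and Hoxd10 and Hoxd11 were at 8.41 and 5.31 CPM in DSS+BV 3, so these markers did not follow the same order. Of the 6 Hox genes, 4 were lower and 2 higher in DSS+BV mice, with a median log2 fold change of -0.17. The part of colon position in the Fabp1 and Fabp2 values was not tested.

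Fabp4 (Entrez gene 11770), the adipocyte and capillary form, was at 44.9, 55.5 and 101.8 CPM in the DSS group and at 39.8, 43.3 and 23.1 CPM in the DSS+BV group. Every DSS+BV mouse was below every DSS mouse, though DSS 1 and DSS+BV 2 were close, and DSS 3 stood highest. The log2 fold change was -0.93 (standard error 0.370, 95% interval -1.81 to -0.04, edgeR adjusted p = 0.389). Its unadjusted edgeR p was 0.0422. Without DSS 3 the log2 fold change was -0.50.

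Fabp5 (Entrez gene 16592), the epidermal form, which macrophages and endothelium also make, was at 30.5, 28.3 and 56.7 CPM in the DSS group and at 26.9, 18.1 and 20.9 CPM in the DSS+BV group. It had the same order of groups as Fabp4, again with DSS 3 highest and without overlap. Its log2 fold change was -0.81 (standard error 0.311, 95% interval -1.55 to -0.07, edgeR adjusted p = 0.383), and it was -0.42 without DSS 3.

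Levels of different genes can be set side by side only per length, so CPM were divided by the length of the longest protein-coding transcript in kilobases. On that scale Fabp2 made 6.52%, 72.3% and 10.7% of the summed level of the 4 FABP genes among the DSS mice, and 39.2%, 80.7% and 86.1% among the DSS+BV mice. Fabp4 made 57.8%, 18.9% and 59.3% in the DSS group, and 37.7%, 14% and 7.08% in the DSS+BV group. Fabp2 was thus the leading form in DSS 2 and in all 3 DSS+BV libraries, by a narrow margin in DSS+BV 1, and Fabp4 was the leading form in DSS 1 and DSS 3. Fabp5 made between 5.29% (DSS+BV 2) and 35.7% (DSS 1), and Fabp1 at most 1.03% (DSS+BV 3). The summed level was 86.6, 328.0 and 192.0 CPM per kilobase in the DSS group, and 118.0, 346.0 and 365.0 CPM per kilobase in the DSS+BV group, so the libraries with the most FABP RNA were those with the most Fabp2.

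**Figure D2:**
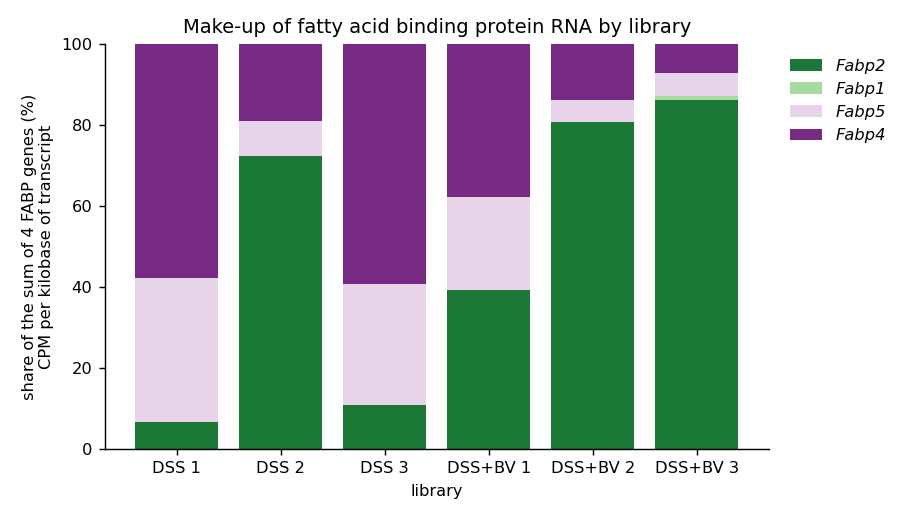
Share of each FABP gene in the summed level of the 4 genes (vertical axis, per cent of CPM per kilobase of transcript) in each of the 6 libraries, with 1 stacked bar per library. Fabp2 (dark green) ranges from 6.52% in DSS 1 to 86.1% in DSS+BV 3, and Fabp4 (dark purple) from 59.3% in DSS 3 to 7.08% in DSS+BV 3.

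The ratio of the epithelial pair Fabp1 and Fabp2 to the other pair Fabp4 and Fabp5 does not depend on how libraries are scaled. On the log2 scale of counts it was -3.79, 1.45 and -2.99 among the DSS mice, and -0.58, 2.14 and 2.79 among the DSS+BV mice. The group means differed by 3.23, and DSS 2 lay above DSS+BV 1, so the groups overlapped. With 1 library left out in turn, an alternative added after the data were seen, the difference lay between 2.22 and 4.84.

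Cd36 (Entrez gene 12491, chr5:17781690-17888959), the fatty acid receptor of adipocytes, capillaries and macrophages, was at 39.5, 42.7 and 69.9 CPM in the DSS group and at 30.01, 24.7 and 20.1 CPM in the DSS+BV group. All 3 DSS+BV mice were below all 3 DSS mice, and the spread within the DSS+BV group was small (24.9 ± 4.96 CPM, SD, n = 3, against 50.7 ± 16.7 CPM in the DSS group). DSS+BV differed from DSS by a log2 fold change of -1.02 (standard error 0.270, 95% interval -1.67 to -0.38, edgeR adjusted p = 0.287), with the smallest unadjusted edgeR p of the 9 tested genes, 0.00736, which ranked 372nd among all tested genes. With DESeq2, the tool of the study, Cd36 was called lower, with a log2 fold change of -1.0 (standard error 0.310, DESeq2 adjusted p = 0.0461). The range without 1 library was -1.18 to -0.72, the latter without DSS 3.

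Slc27a4 (Entrez gene 26569, chr2:29802634-29817522) encodes FATP4, a transport protein and acyl-CoA synthetase of absorptive gut cells. It was at 53.1, 100.7 and 50.7 CPM in the DSS group and at 56.3, 130.3 and 211.6 CPM in the DSS+BV group. DSS 2, DSS+BV 2 and DSS+BV 3 were again the 3 highest libraries, and the other 3 lay between 50.7 and 56.3 CPM. On the log2 scale the difference was 0.96 (standard error 0.500, 95% interval -0.23 to 2.16, edgeR adjusted p = 0.478), and 0.46 without DSS+BV 3.

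Slc27a2 (Entrez gene 26458, chr2:126553024-126588243) encodes FATP2, which activates very long chain fatty acids and is known from liver and kidney. It was low, at 0.718, 13.1 and 1.11 CPM in the DSS group and 2.44, 3.63 and 4.30 CPM in the DSS+BV group. DSS 2 was above every other library, whereas DSS 1 and DSS 3 were below every DSS+BV library. The log2 fold change was -0.52 (standard error 1.04, 95% interval -3.0 to 1.96, edgeR adjusted p = 0.864). It turned to 1.92 without DSS 2, so its direction rested on that library.

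Within each library, the count of Slc27a4 relative to that of Cd36 was 1.34, 2.36 and 0.726 in the DSS group, and 1.87, 5.29 and 10.5 in the DSS+BV group. Only DSS 2 and DSS+BV 1 crossed in this order. Per kilobase of transcript, Cd36 was at 11.6, 12.6 and 20.6 CPM in the DSS group against 13.1, 24.8 and 12.5 for Slc27a4, and at 8.83, 7.25 and 5.92 in the DSS+BV group against 13.9, 32.2 and 52.2 for Slc27a4. The membrane receptor was thus the lower of the pair in every library but DSS 3.

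Plin2 (Entrez gene 11520, chr4:86626910-86670217), the coat protein of lipid droplets in most cell types, was at 128.1, 167.4 and 276.0 CPM in the DSS group and at 98.9, 104.4 and 140.3 CPM in the DSS+BV group. DSS+BV 3 lay above DSS 1, and otherwise the DSS+BV mice were lower. Its log2 fold change was -0.73 (standard error 0.304, 95% interval -1.46 to -0.01, edgeR adjusted p = 0.398), and -0.37 without DSS 3.

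Cpt1a (Entrez gene 12894, chr19:3322326-3385735) encodes the carnitine palmitoyltransferase that controls entry of long chain fatty acids into mitochondria. It had the highest CPM of the 10 genes in every library, a rank that does not allow for length. Per kilobase of transcript, Fabp2 was above it in DSS 2, DSS+BV 2 and DSS+BV 3, and Plin2 and Fabp4 were above it in DSS 3. Cpt1a was at 351.5, 532.4 and 377.6 CPM in the DSS group and at 381.5, 498.2 and 584.0 CPM in the DSS+BV group. The groups overlapped widely, and DSS 2 was the second highest of all libraries. DSS+BV differed from DSS by a log2 fold change of 0.21 (standard error 0.236, 95% interval -0.35 to 0.78, edgeR adjusted p = 0.730).

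The count of Cpt1a relative to that of Plin2 in the same library was 2.74, 3.18 and 1.37 in the DSS group, and 3.86, 4.77 and 4.16 in the DSS+BV group. Each DSS+BV mouse had more Cpt1a per Plin2 than each DSS mouse, although neither gene alone separated the groups in this way. It was one of several ratios formed and received no test.

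Angptl4 (Entrez gene 57875, chr17:33774900-33781575) encodes a secreted inhibitor of lipoprotein lipase, the enzyme that frees fatty acids from circulating triglyceride. It was at 35.1, 34.5 and 61.0 CPM in the DSS group and at 3.43, 12.2 and 25.0 CPM in the DSS+BV group. All DSS+BV mice were below all DSS mice, but the DSS+BV mice differed 7.30-fold among themselves. The log2 fold change of -1.68 was the largest in size among the 9 tested genes (standard error 0.652, 95% interval -3.24 to -0.12, edgeR adjusted p = 0.384). It lay between -2.47 without DSS+BV 3 and -1.22 without DSS+BV 1.

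**Figure D3:**
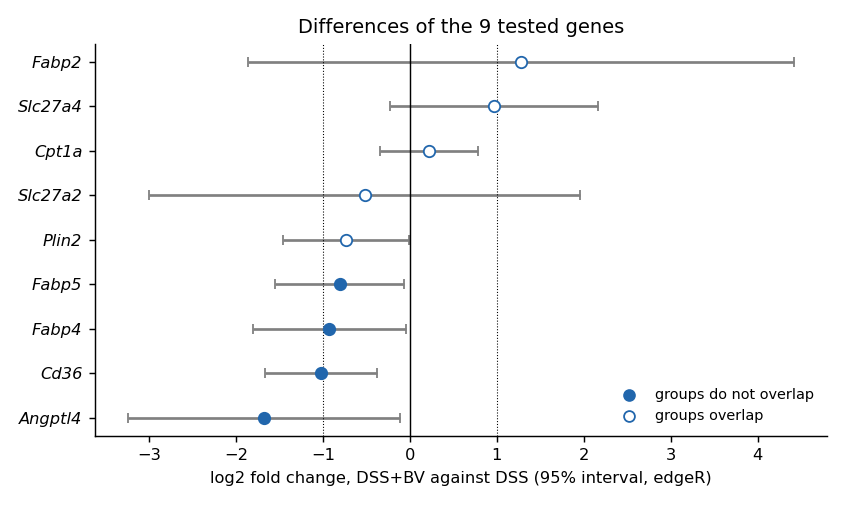
Log2 fold change of the 9 tested genes, DSS+BV against DSS (horizontal axis), with the 95% interval from edgeR as bars and dotted lines at an absolute log2 fold change of 1. Filled points mark the 4 genes whose groups do not overlap, and the intervals of Fabp2 and Slc27a2 are the widest.

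A gene was called when its adjusted p was under 0.05 and its log2 fold change was beyond 1 in either direction. Of the 9 tested genes edgeR called 0 lower, against 0.0892% of all tested genes, and 0 higher, against 0.0%. At an unadjusted edgeR p under 0.05, 5 were lower (Fabp4, Fabp5, Cd36, Plin2 and Angptl4), where the share of all tested genes was 9.12%, and 0 were higher, where it was 3.4%. The groups did not overlap, with DSS+BV lower, in 4 of the 9 against 11.3% of all tested genes, and with DSS+BV higher in 0 against 6.37%. DESeq2 called 1 lower, Cd36, against 1.78% of the genes it tested, and 0 higher, against 0.291%. In all, 6 of the 9 were lower and 3 higher, with a median log2 fold change of -0.73, against -0.011 over all tested genes. Since the 10 genes were chosen with earlier results of these data known, these counts are a description. An exact two-sided permutation test of 3 against 3 mice cannot give a p under 0.1 for a single gene, and Fabp4, Fabp5, Cd36 and Angptl4 each reached that value.

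Across the 6 libraries, most of the genes fell into 2 sets by the correlation of their log2 CPM. It was 0.94 between Fabp4 and Cd36, 0.94 between Fabp5 and Cd36, and 0.83 between Fabp4 and Fabp5. In the other set it was 0.94 between Fabp2 and Cpt1a, 0.95 between Slc27a4 and Cpt1a, and 0.86 between Fabp2 and Slc27a4. Slc27a2 was at 0.87 with Fabp2, 0.83 with Cpt1a and 0.64 with Slc27a4, although its fold change was negative. Plin2 was closest to Fabp5 (0.83) and Angptl4 to Plin2 (0.81), while Fabp2 and Fabp4 stood at -0.44. Angptl4 was less like Fabp4, Fabp5 and Cd36, at 0.45, 0.53 and 0.56. These values describe 6 libraries of 2 groups that share the group difference and the tissue make-up, and carry no test.

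The genes most like Fabp2 among 11941 searched were Cmbl, Ovol1 and Hsd3b2, with correlations of 0.998, 0.996 and 0.996 over the 6 libraries. Hsd3b2 was at 2.52, 32.7 and 5.76 CPM in the DSS group and 12.7, 41.2 and 51.8 CPM in the DSS+BV group, in the same order of libraries as Fabp2. Those most like Fabp4 were Fxyd1, Cfl2 and 1110051M20Rik, with correlations of 0.990, 0.990 and 0.988, and Fxyd1 was at 14.01, 15.7 and 27.3 CPM in the DSS group and 13.6, 12.7 and 8.66 CPM in the DSS+BV group.

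Markers of vessels, macrophages and other stromal cells were lower in the DSS+BV libraries, together with Fabp4, Fabp5, Cd36, Plin2 and Angptl4. The summed level of 12 endothelial markers was 475.2, 467.6 and 625.7 CPM in the DSS group and 409.3, 306.9 and 310.6 CPM in the DSS+BV group, without overlap, and all 12 had a log2 fold change below 0 (median -0.67, 0 called). Pecam1 was at 88.6, 86.0 and 120.0 CPM against 89.1, 55.7 and 47.0 CPM, and Cdh5 at 45.3, 45.6 and 52.2 CPM against 36.9, 28.2 and 22.7 CPM. DSS 3, the library with the most Fabp4, Fabp5 and Cd36, had the most Pecam1 and Cdh5. The 10 macrophage markers were all lower (median -0.89, 0 called). Their sums overlapped, at 936.9, 551.9 and 1181 CPM in the DSS group and 700.0, 338.2 and 313.8 CPM in the DSS+BV group. Among these markers Adgre1 was at 37.3, 33.0 and 52.9 CPM against 52.0, 19.1 and 23.0 CPM, and Cd68 at 49.7, 27.5 and 50.9 CPM against 44.9, 17.1 and 16.1 CPM. Within the DSS+BV group, DSS+BV 1 had the highest endothelial and macrophage sums but the least Angptl4 and Plin2. The 8 fibroblast markers were lower too (median -1.01, 0 called), and so were the 7 tested neutrophil markers (median -3.61, 5 called), whereas 8 smooth muscle markers had a median of -0.20.

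The adipocyte markers Adipoq and Plin1 were low in these libraries. Adipoq, which encodes the adipocyte hormone adiponectin, was at 0.898, 3.11 and 7.51 CPM in the DSS group and 1.98, 2.55 and 0.0 CPM in the DSS+BV group. Plin1, the droplet coat of adipocytes, was at most 0.641 CPM and was not tested, and Cidec was at 2.46, 11.1 and 16.3 CPM against 3.83, 17.01 and 17.96 CPM. Of 12 adipocyte markers 8 were tested, 7 lower and 1, Cidec, higher (0 called). Cfd and Lipe were lower in every DSS+BV mouse. Cfd was at 15.57, 16.54 and 60.04 CPM in the DSS group and 10.75, 9.11 and 0.0 CPM in the DSS+BV group. Lipe was at 21.2, 18.4 and 32.44 CPM against 17.02, 17.2 and 17.51 CPM. The sum of the 12 markers was highest in DSS 3, at 158.2 CPM, against 40.3 to 66.6 CPM in the other libraries. Fabp4 itself was highest in DSS 3 as well, at 101.8 CPM, and lowest in DSS+BV 3, at 23.1 CPM. In DSS+BV 3 the markers Adipoq, Plin1, Cfd, Retn and Lep were at 0. There Cidec was at 17.96 CPM, Lipe at 17.5, Thrsp at 2.34, Pnpla3 at 1.26, Car3 at 0.885, Cidea at 0.190 and Adig at 0.126 CPM. Of 7 markers of fatty acid transporting capillaries 5 were tested, 4 lower and 1 higher (median -0.65, 0 called). Among the 4 lower was Car4, at 223.4 to 1736 CPM, which is also in the list of absorptive colonocyte markers. Gpihbp1, which holds lipoprotein lipase on the vessel wall, was at 3.29, 4.17 and 2.68 CPM in the DSS group and 2.18, 1.78 and 1.52 CPM in the DSS+BV group, and was the one of these 7 markers whose groups did not overlap.

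The epithelial markers moved the other way, and their high levels fit the labelled tissue. All 12 had a log2 fold change above 0 (median 0.45, 0 called), and their sum was 13110, 15160 and 15210 CPM in the DSS group and 19880, 22090 and 16830 CPM in the DSS+BV group. Epcam was at 1264, 1339 and 1474 CPM against 1364, 1749 and 1612 CPM, and Vil1 at 680.4, 714.4 and 746.5 CPM against 889.6, 1075 and 1017 CPM. The 10 markers of absorptive colonocytes summed to 2122, 4008 and 4623 CPM in the DSS group and 3312, 13020 and 10780 CPM in the DSS+BV group (3 lower, 7 higher, median 0.32). Most of the sum in DSS+BV 2 and DSS+BV 3 came from Car1 alone, at 10450 and 8702 CPM, against 824.8 to 1041 CPM in the other libraries. The sum of these 10 markers did not follow Fabp2 in DSS 2 and DSS 3. Those libraries had similar sums, at 4008 and 4623 CPM, but 228.8 and 19.8 CPM of Fabp2.

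**Figure D4:**
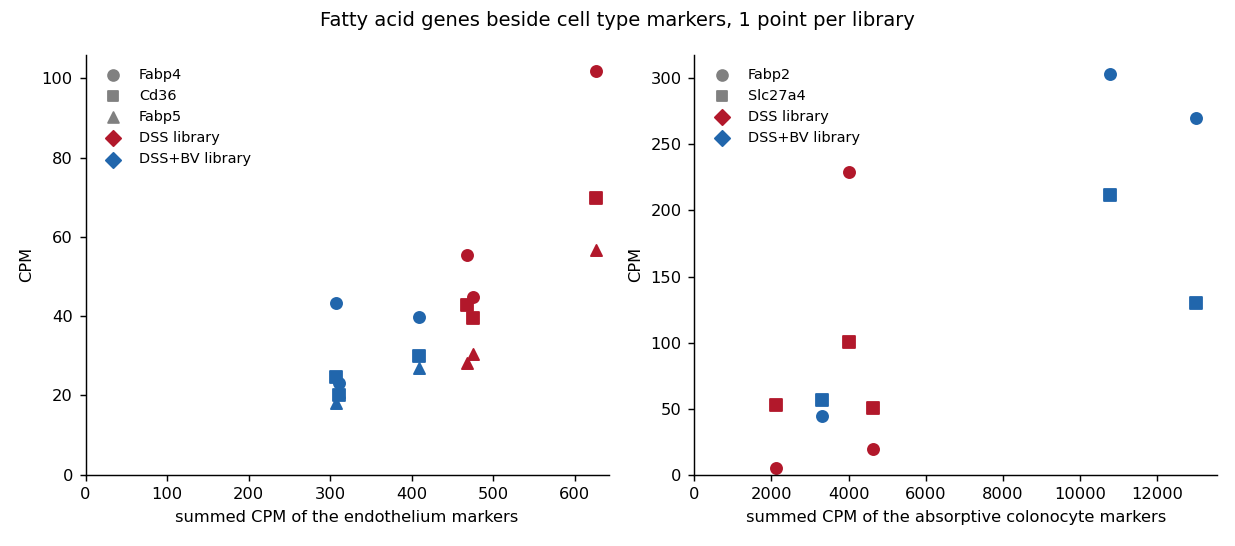
Level of fatty acid genes in CPM (vertical axes) against the summed CPM of 12 endothelial markers (left; Fabp4, Cd36 and Fabp5) and of 10 absorptive colonocyte markers (right; Fabp2 and Slc27a4), with 1 point per gene and library, red for DSS and blue for DSS+BV. Fabp4, Cd36 and Fabp5 are highest in DSS 3, the library with the highest endothelial sum, 625.7 CPM, and also the highest adipocyte and macrophage sums. Fabp2 is at 228.8 and 19.8 CPM in 2 DSS libraries with absorptive colonocyte sums of 4008 and 4623 CPM. Car1 makes most of the absorptive colonocyte sum in DSS+BV 2 and DSS+BV 3.

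Relative to the endothelial sum, the differences of Fabp4, Fabp5 and Cd36 were smaller. Fabp4 was at 9.44%, 11.9% and 16.3% of that sum in the DSS group and at 9.73%, 14.1% and 7.45% in the DSS+BV group, a mean log2 difference of -0.28 with overlap. Fabp5 was at 6.41%, 6.05% and 9.06% against 6.56%, 5.89% and 6.74%, a difference of -0.14. Cd36 was at 8.32%, 9.13% and 11.2% against 7.33%, 8.03% and 6.47%, a difference of -0.38, with the DSS+BV mice still lower without overlap. Plin2 differed by -0.07 on this scale and Angptl4 by -1.43, both with overlap. Relative to the adipocyte sum the differences were just as small, at -0.28, -0.14, -0.38 and -0.06 for Fabp4, Fabp5, Cd36 and Plin2, all with overlap. That sum is an uneven measure, since in DSS+BV 3 Cidec and Lipe made 17.96 and 17.5 of its 40.3 CPM. Relative to the macrophage sum, Fabp4, Fabp5 and Cd36 differed by 0.12, 0.26 and 0.02. Relative to the epithelial sum, Fabp4, Fabp5, Cd36, Plin2 and Angptl4 were lower in every DSS+BV mouse, with differences between -2.47 for Angptl4 and -1.11 for Plin2. These are values within libraries with no test, and the part of the cell types in the differences was not tested.

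Relative to the epithelial sum, Fabp2 stood at 0.0416%, 1.51% and 0.13% in the DSS group and at 0.225%, 1.22% and 1.80% in the DSS+BV group, and DSS 2 stayed far above DSS 1 and DSS 3. Slc27a4 differed by 0.41, Slc27a2 by 0.20 and Cpt1a by -0.21 in mean log2 values on this scale, all with overlap of the groups. The sign of Cpt1a was the opposite of that of its edgeR fold change. That of Slc27a2 was too, but the edgeR fold change is another measure. For Slc27a2 the scaling was not separated from this change of measure.

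Many genes of this pathway are targets of the peroxisome proliferator-activated receptors (PPAR), nuclear receptors for fatty acids that bind, with RXR, a direct repeat of the half-site AGGTCA with 1 base between. RefSeq promoters (GRCm38.p6, 250 bases before to 50 after the start) were given for 7 of the 10 genes, not for Fabp4, Fabp5 and Angptl4. A repeat with up to 2 mismatches in its 12 defined bases, on either strand, was found in 3 of the 7, Fabp1, Cd36 and Plin2, and in 3.87% of all promoters of that length. The limit of 2 mismatches was set after the matches were seen. With up to 1 mismatch the repeat was found in Fabp1 alone (0.559% of all promoters), and with up to 3 in 5 of the 7 (24.7%). The single half-site was in 5 of the 7 and in 16.2% of all promoters. In Fabp1 and Plin2 the repeat itself holds an exact half-site, and in Cd36 it does not. The matches are shown in capitals in 49 bases of the gene strand, at chr6:71199794-71199842 for Fabp1 on the plus strand, chr5:17835929-17835977 for Cd36 and chr4:86670254-86670302 for Plin2, both on the minus strand. All 3 matches were found on the strand opposite to the gene, so the capitals show the reverse complement of the repeat.
Fabp1: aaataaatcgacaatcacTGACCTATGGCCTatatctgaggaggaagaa
Cd36: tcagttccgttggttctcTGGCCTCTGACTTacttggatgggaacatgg
Plin2: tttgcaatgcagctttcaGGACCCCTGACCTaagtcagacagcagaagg
The match lay 67 to 55 bases before the start in Fabp1, 63 to 51 in Cd36, whose start in the table is inside the annotated span of the gene, and 225 to 213 in Plin2. The 3 genes with a match differed in expression: Fabp1 was near 0, and Cd36 and Plin2 were on the lower side. A match of letters is a description of the window and shows no binding.

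The other genes of the pathway were taken from 9 lists with 144 entries, of which 124 were tested. EdgeR called 0 of them, 35 were lower and 89 higher, and the median log2 fold change was 0.27. At an unadjusted edgeR p under 0.05, 4 were lower and 14 higher, where the shares of all tested genes were 9.12% and 3.4%. Most of the lists thus lay on the other side of 0 from Fabp4, Fabp5, Cd36, Plin2 and Angptl4.

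Among relatives of the 10 genes, 11 were tested, 6 lower and 5 higher (median -0.02, 0 called). Fabp6, the ileal bile acid binding form, was at 0.539, 0.622 and 1.22 CPM in the DSS group and 7.25, 1.91 and 2.34 CPM in the DSS+BV group, higher in every DSS+BV mouse (log2 fold change 2.26, edgeR adjusted p = 0.318). Plin3, the widely expressed relative of Plin2, was at 63.5, 64.1 and 57.5 CPM against 55.2, 57.9 and 69.9 CPM, a log2 fold change of -0.02. Cpt1c, the brain form of Cpt1a, had a log2 fold change of -0.70.

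Genes that make and store triglyceride showed small differences. Of 13 tested synthesis genes 11 were higher (median 0.14), and Mogat2, the monoacylglycerol acyltransferase of absorptive cells, was at 1.44, 2.67 and 1.28 CPM in the DSS group and 0.989, 11.3 and 10.4 CPM in the DSS+BV group (log2 fold change 2.07, edgeR adjusted p = 0.392). Agpat1 and Agpat2 had log2 fold changes of 0.31 and 0.32. Of 15 tested droplet and lipolysis genes 7 were lower and 8 higher (median 0.06), with Gpihbp1 at -0.89, G0s2, an inhibitor of the lipase ATGL, at -0.77, and Cav1, a caveolar protein, at 0.26. Lipoprotein lipase itself, Lpl, which Angptl4 inhibits, was at 40.7, 42.0 and 30.6 CPM in the DSS group and 15.8, 37.8 and 40.9 CPM in the DSS+BV group, with a fold change of -0.26 on the log2 scale. It was named after its values were seen. Of 7 tested lipoprotein genes 5 were lower (median -0.15), with Apoc2, the cofactor of that lipase, at -1.39 and Apoe at -0.80.

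Genes of fatty acid oxidation, activation and synthesis were mostly on the higher side, as were PPAR regulators and targets. Of 17 mitochondrial oxidation genes 14 were higher (median 0.33, 0 called), with Hadha at 0.24, Etfdh at 0.43 and Acadl, a long chain dehydrogenase, at -0.47. Of 17 peroxisomal genes 14 were higher (median 0.25, 0 called), with Crat at 0.38 and Abcd2 at -1.09. Of 12 genes of acyl-CoA formation and binding 10 were higher (median 0.33), among them Acsl1 at 0.39 and Acsl3 at 0.75. Of 14 genes of fatty acid synthesis 13 were higher (median 0.53, 5 with an unadjusted edgeR p under 0.05), with Mlxipl, which encodes the glucose-sensing factor ChREBP, at 1.5, Elovl5 at 0.42 and Scd2 at 1.54. Of 18 tested PPAR regulators and targets 12 were higher and 6 lower (median 0.43), with Hnf4a at 0.64, Ucp2 at 0.57 and Txnip at -0.20. As examples of PPAR targets among the 10 genes, not a full list, Plin2, Cd36 and Angptl4 were lower. Cpt1a was higher, at 0.21 with a standard error of 0.236, though at -0.21 relative to the epithelial sum. Of these examples DESeq2 called Cd36 and edgeR none.

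**Figure D5:**
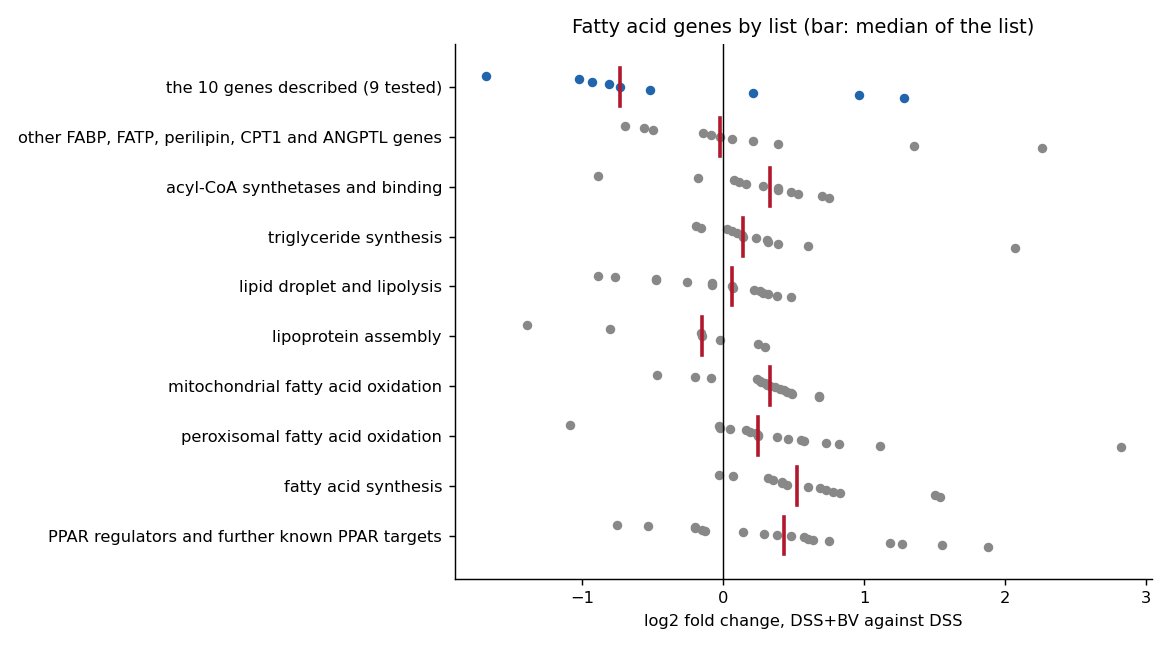
Log2 fold change, DSS+BV against DSS (horizontal axis), of the 9 tested genes described here (blue, top row) and of the tested genes of 9 pathway lists (grey), with 1 point per gene and a red bar at the median of each list. The median of the top row is -0.73, and those of the lists lie between -0.15 and 0.53.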

How the data were processed

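The authors sequenced colon RNA of 6 mice. The deposited table holds RSEM expected counts for each gene, not scaled. The submitters' processing notes name HISAT2 2.1.0, Bowtie2 2.2.5, RSEM 1.2.8 and the build GRCm38.p6, and the annotation is not given in the sources used here. Totals were 15293276 to 17254343 expected counts. Here expected counts were rounded, genes were kept with filterByExpr (minimum count 10, minimum total 15), libraries were scaled with TMM factors (0.97 to 1.039), and edgeR 4.0.16 (R 4.3.3) tested DSS+BV against DSS by quasi-likelihood, with p-values adjusted by Benjamini-Hochberg for the 14579 genes kept (biological coefficient of variation 32.1%). The code was tested on simulated data. DESeq2 1.42.0, other factors and filters, a robust fit, a replicate block, scaling to marker sums and leaving out each library were alternatives. Libraries of 1 group differed by 42.7 to 118.1 in chi-square per degree of freedom, so none was a repeat of another. Correlations used log2 CPM with a prior count of 2. Gene lengths are those of the longest protein-coding GENCODE transcript.

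The 10 genes, the pathway lists and the marker lists were chosen with earlier results of these data known. Named were all 10 genes, in each pathway list every called gene, up to 2 genes with the smallest p and the most abundant gene, the 3 genes most like Fabp2 and Fabp4 at a mean CPM of at least 5, and a few markers. A gene that this rule names is not reported here. Protein identity had been planned, but coding sequences were compared instead, since no protein table was used here. Replicates are separate mice. Same-numbered libraries of the 2 groups correlated at 0.267, 0.255 and -0.296 in their deviations from the group means, so the numbers were not taken to pair the mice.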

Additional observations from a re-analysis of the deposited data

How the results depend on the processing

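Over all genes, edgeR called 13 lower and 0 higher, DESeq2 281 and 46, edgeR with the replicate number as a block 0 and 0, and edgeR with 1 library left out 0 to 3 lower and 0 to 4 higher. Among the 10 genes, 0 were called lower and 0 higher by edgeR under every other factor, filter, fit and left-out library, and DESeq2 called 1 lower, Cd36. With the replicate block, which the check of pairing did not support, 0 of the 10 were called, and of the 3 DSS libraries only DSS 1 correlated best with its own number. Slc27a2 changed direction in 2 edgeR settings, to a log2 value of 0.61 under the replicate block and 1.92 without DSS 2. Relative to the epithelial and endothelial marker sums it was at 0.2 and 1.24. These are differences of mean log2 values, another measure than the edgeR fold change, so their sign does not show an effect of the scaling. The range of Slc27a2 with 1 library left out was -1.02 to 1.92. Cpt1a changed from 0.21 to -0.21 relative to the epithelial sum. Of the 9 tested genes, the other 7 kept their direction in these settings, although relative to the macrophage sum Fabp4, Fabp5, Cd36 and Plin2 differed by 0.12, 0.26, 0.02 and 0.34. Leaving out DSS 3 brought Fabp4, Fabp5 and Plin2 to -0.50, -0.42 and -0.37. Scaling to the endothelial marker sum brought Fabp4, Fabp5, Cd36 and Plin2 to -0.28, -0.14, -0.38 and -0.07. Relative to the adipocyte marker sum, which in DSS+BV 3 was mostly Cidec and Lipe, the same genes were at -0.28, -0.14, -0.38 and -0.06. The cause was not tested. Depth limits Fabp1, with under 3 counts in 5 of the 6 libraries, and Slc27a2, with 12 counts in DSS 1. For the others the spread between 3 mice sets the width of the intervals.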

Other observations

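A peroxisomal oxidation gene and a PPAR gene varied between libraries much as Fabp2 did (named after their values were seen). The peroxisomal thiolase Acaa1b was at 0.18, 6.03 and 1.17 CPM in DSS mice and at 0.198, 17.1 and 34.8 CPM in the DSS+BV group, and the nuclear receptor Ppara at 5.39, 35.4 and 4.95 CPM against 16.1, 61.7 and 90.3 CPM. In both genes DSS 2, DSS+BV 2 and DSS+BV 3 were the highest libraries, as for Fabp2, and the groups overlapped. Their edgeR adjusted p-values were 0.508 and 0.463.

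Genes of fatty acid synthesis had another order. Fasn, the fatty acid synthase, was at 241.1, 179.1 and 85.8 CPM in the DSS group and at 335.3, 284.8 and 281.6 CPM in the DSS+BV group, and Acaca, the acetyl-CoA carboxylase, at 82.99, 72.4 and 40.8 CPM against 120.0, 102.1 and 94.0 CPM. Both were higher in every DSS+BV mouse and lowest in DSS 3, the library with the most Fabp4 and Plin2, and neither passed the test (edgeR adjusted p = 0.403 and 0.387).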
